A study of Mus musculus with 8 samples.

Results

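The 38 genes described here are markers and working parts of myeloid cells, read out in libraries made from sorted regulatory T cells (Tregs) of mouse blood. They were listed by name, matched to the 56980 genes of the deposited count table by symbol, and split by known function into 13 genes most used by neutrophils, 7 most used by monocytes and 18 shared by both. All 38 had 1 identifier in the table. The libraries came from male C57BL/6j mice bought at 8 weeks of age. The 4 HADA (high-altitude de-acclimatization) libraries came from mice kept for 28 days in a hypobaric chamber that simulated 6000 m and then returned to normal oxygen, and the 4 control libraries from mice that had not been in the chamber. No genetic change is named for either group, and the day after return on which the cells were sorted for sequencing is not stated. The comparison asks whether myeloid genes differed between HADA and control Treg libraries, and which kind of myeloid gene held the counts in each library. Nothing in the sources used here says whether replicates were separate animals or pools, so the p-values measure only the spread between these libraries.

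Neutrophils and monocytes arise from a common bone marrow progenitor under the transcription factors PU.1 and C/EBPα. Neutrophils fill their granules in waves, with lactoferrin, cathelicidin and collagenase made at the myelocyte stage, and blood neutrophils have largely stopped transcribing these granule genes while they still transcribe S100a8, S100a9 and Csf3r. Monocytes carry the receptor for macrophage colony stimulating factor and much lysozyme. Both cell types signal through small membrane adaptors, DAP12 (Tyrobp) and the Fc receptor γ chain (Fcer1g), which natural killer cells, basophils and mast cells also use. T cells are not a usual source of these transcripts.

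Levels are given as CPM, counts scaled by TMM to a common library total, in the order of replicates 1 to 4. Total counts ranged from 22929193 to 28240337 in HADA and from 1477431 to 22584062 in control, and the smallest library, control replicate 1, needs 3 counts, or 2.03 unscaled CPM, for a gene to be seen. These floors cover counting error only. Olfactory and vomeronasal receptor genes, which blood cells do not usually transcribe, took 0.803% of counts in control replicate 2, 0.394% in control replicate 3 and between 0.0576% and 0.206% in the other 6 libraries. Mitochondrial genes took 6.20% ± 1.07 of counts in HADA and 2.19% ± 1.32 in control (SD, n = 4 each). A two-sided exact permutation test gave p = 0.029, which is the least that 4 against 4 libraries allow, and an adjusted p of 0.0714 over 10 measures. The sort label was checked on T cell genes. Cd3e, a T cell receptor subunit, had 198, 1.41, 219 and 77.0 CPM in control and 183, 272, 413 and 413 CPM in HADA. Cd4 had 199, 3.73, 4.79 and 220.2 CPM in control and 88.0, 176, 162 and 234 CPM in HADA. Il2ra, which encodes CD25, had 178, 10.5, 7.23 and 59.5 CPM in control and 309, 163, 287 and 748 CPM in HADA. Foxp3, the factor that defines Tregs, and Tnfrsf18 were listed at 0 in all 8 libraries, but other gene models cover 100% of the span of each, so that these zeros do not measure the transcripts. Control replicate 2 was low for Cd3e, Cd4 and Il2ra, and control replicate 3 for Cd4 and Il2ra. Cd3g and Ctla4 were low in control replicate 2 too, at 5.10 and 5.07 CPM. Ikzf2, a factor of Tregs and other T cells, had 125, 211, 287 and 271 CPM in control and 538, 224, 685 and 737 CPM in HADA.

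The results turn on genes of the neutrophil granule and on a hexokinase gene that differed in which libraries held them, and their promoters are shown for that reason. Ltf and Hk3 were higher in every HADA library than in any control. Camp and Ngp, which are transcribed at the same stage of neutrophil maturation as Ltf, were high in control replicate 4 alone. Each line gives the 250 bases before the transcript start from RefSeq on the gene's own strand (build GRCm38.p6, a different build from the GRCm39 of the counts), for Ltf at chr9:111019042-111019291 on the plus strand, Camp at chr9:109849457-109849706 on the minus strand, Ngp at chr9:110419558-110419807 on the plus strand and Hk3 at chr13:55021386-55021635 on the minus strand. Capitals mark matches on either strand to the PU.1 core GAGGAA (reverse complement TTCCTC) or to the C/EBP motif TTGCNNAA (reverse complement TTNNGCAA).
Ltf: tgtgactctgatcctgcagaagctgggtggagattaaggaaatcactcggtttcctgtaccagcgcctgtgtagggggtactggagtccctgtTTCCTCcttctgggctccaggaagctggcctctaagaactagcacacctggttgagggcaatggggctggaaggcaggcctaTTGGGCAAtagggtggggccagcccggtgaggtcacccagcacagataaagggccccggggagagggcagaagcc
Camp: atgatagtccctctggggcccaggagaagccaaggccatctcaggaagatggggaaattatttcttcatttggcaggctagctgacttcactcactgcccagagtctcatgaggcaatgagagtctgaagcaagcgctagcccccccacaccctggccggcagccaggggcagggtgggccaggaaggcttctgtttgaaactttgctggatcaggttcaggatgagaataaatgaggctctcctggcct
Ngp: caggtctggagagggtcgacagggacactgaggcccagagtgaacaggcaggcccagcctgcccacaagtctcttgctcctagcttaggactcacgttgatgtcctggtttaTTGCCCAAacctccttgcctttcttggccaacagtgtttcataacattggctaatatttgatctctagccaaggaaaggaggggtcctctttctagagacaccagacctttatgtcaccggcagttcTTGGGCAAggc
Hk3: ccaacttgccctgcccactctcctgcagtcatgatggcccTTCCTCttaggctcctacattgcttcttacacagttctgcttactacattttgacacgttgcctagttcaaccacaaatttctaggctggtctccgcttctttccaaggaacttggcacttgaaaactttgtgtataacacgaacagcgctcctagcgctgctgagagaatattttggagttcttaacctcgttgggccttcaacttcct
Ltf held a PU.1 core that began 157 bases before the start and a C/EBP match 75 bases before it. Ngp held C/EBP matches at 138 and 11 bases before the start, Hk3 a PU.1 core at 210 bases, and Camp none of these letters in this window. No printed match overlapped another. Among the 30 members with an entry in the promoter table, 16 held the PU.1 core, which stood in 23.3% of all 32851 promoters, and 10 held the C/EBP match, which stood in 9.56%. Members are counted here as genes and the shares as promoters, so the units differ. Ly6c2, Fcgr3, Clec7a and Plac8, all among the 16, had 2 promoters each. A match describes the letters and is not shown to be a bound site.

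Over all libraries the 38 genes together had 3311, 187, 869 and 3562 CPM in control and 4520, 7764, 7063 and 4405 CPM in HADA. Every HADA library was above every control library, with control replicate 4 and HADA replicate 4 closest. As a share of unscaled counts the 38 genes took 0.361%, 0.0414%, 0.110% and 0.285% in control and 0.406%, 0.808%, 0.474% and 0.276% in HADA, and there the groups overlapped, since HADA replicate 4 was below control replicates 1 and 4. The control libraries spread more widely than the HADA libraries, and control replicates 2 and 3 were the lowest. In sequencing of a bulk sort, fewer myeloid cells and less RNA per cell cannot be told apart.

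**Figure D1:**
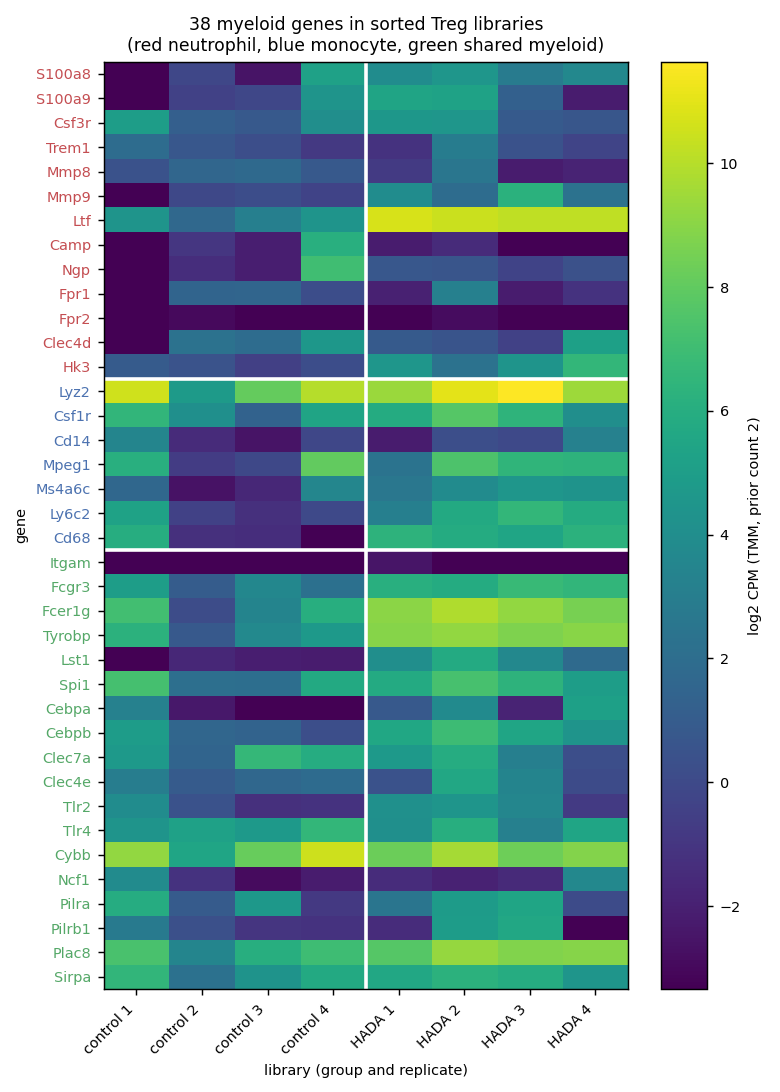
Level of each of the 38 myeloid genes (rows, log2 CPM, colour scale) in the 8 libraries (columns), ordered by subgroup. Ltf, Tyrobp and Fcer1g are bright in all 4 HADA libraries, Camp and Ngp in control replicate 4 alone, and control replicates 2 and 3 are dark for most genes.

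Which subgroup held the counts differed between libraries. The 13 neutrophil genes summed to 59.7, 21.6, 24.3 and 324 CPM in control and to 1850.0, 1482, 1284 and 1342 CPM in HADA, without overlap. A single gene, Ltf, made up between 88.8% and 93.3% of the HADA sums. Without Ltf the sums were 38.5, 18.4, 15.6 and 303 CPM in control and 124, 119, 112 and 151 CPM in HADA, so that control replicate 4 was then the highest of all 8. The log2 ratio of the mean sums was 3.79 with Ltf and 0.43 without it.

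The 7 monocyte genes summed to 1803, 47.2, 276 and 1311 CPM in control and to 841, 2592, 3533 and 955 CPM in HADA. Control replicates 1 and 4 were above HADA replicates 1 and 4. Lyz2, lysozyme, held the most monocyte-gene counts in all 8 libraries, from 59.7% of the sum in control replicate 2 to 98.5% in control replicate 3. Without Lyz2 the sums were 278, 19.0, 4.19 and 315 CPM in control and 159, 509, 337 and 264 CPM in HADA, and control replicates 1 and 4 again lay within the HADA range. The 18 shared genes summed to 1449, 119, 568 and 1927 CPM in control and to 1829, 3690, 2246 and 2109 CPM in HADA, with control replicate 4 above HADA replicate 1. Their leading gene by counts was Cybb, the membrane subunit of the phagocyte oxidase, in all 4 control libraries, Fcer1g in HADA replicates 1 to 3 and Tyrobp in HADA replicate 4.

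As a share of the counts on the 38 genes, the neutrophil genes took 1.80%, 11.5%, 2.79% and 9.10% in control and 40.9%, 19.1%, 18.2% and 30.5% in HADA. Monocyte genes took the largest share in control replicate 1 (54.4%) and in HADA replicate 3 (50.0%). Shared genes took the largest share in control replicates 2 to 4, from 54.1% to 65.4%, and in HADA replicates 2 and 4, at 47.5% and 47.9%. In HADA replicate 1 the neutrophil share of 40.9% and the shared-gene share of 40.5% were almost alike. These are shares of counts that are not corrected for gene length.

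**Figure D2:**
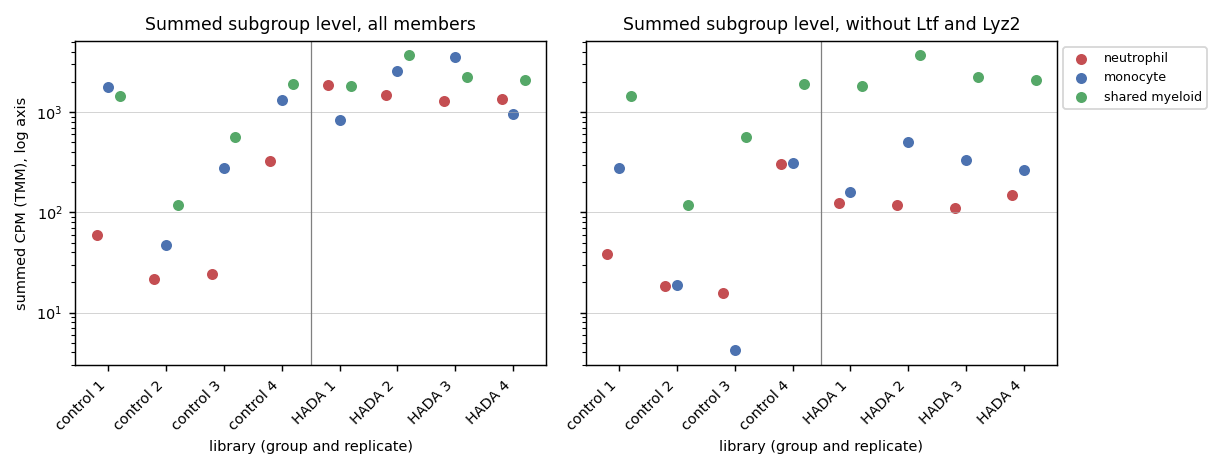
Summed CPM of the neutrophil, monocyte and shared genes in each library (log axis), with all members on the left and without Ltf and Lyz2 on the right. The neutrophil sums of the HADA libraries, 1284 to 1850.0 CPM, fall to 112 to 151 CPM once Ltf is left out, below the 303 CPM of control replicate 4.

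Counts on a gene were also set against those its length would collect at the density seen on receptor genes in the same library. A gene stood clear when it had over 3 counts and over 3 times that expectation. Of the 38 genes, 26, 2, 9 and 20 stood clear in control and 23, 29, 26 and 24 in HADA. The median gene of control replicates 2 and 3 had 0.483 and 0.468 times the expectation, while that of control replicate 4 had 3.83 times, those of the HADA libraries had from 5.96 to 24.2 times, and that of control replicate 1 had 32.2 times, above every HADA library. For most of these genes, control replicates 2 and 3 showed no signal that could be set apart from the receptor-gene level.

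By subgroup, 3, 0, 0 and 7 of the 13 neutrophil genes stood clear in control and 6, 6, 5 and 5 in HADA. All 7 monocyte genes stood clear in control replicate 1 and in HADA replicates 2, 3 and 4. Control replicate 1 thus held monocyte and shared genes well above background, 7 of 7 and 16 of 18, with 8 of its 13 neutrophil genes at 0 counts. In that library, with 1477431 counts in all, a gene at 0 may lie under the floor.

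**Figure D3:**
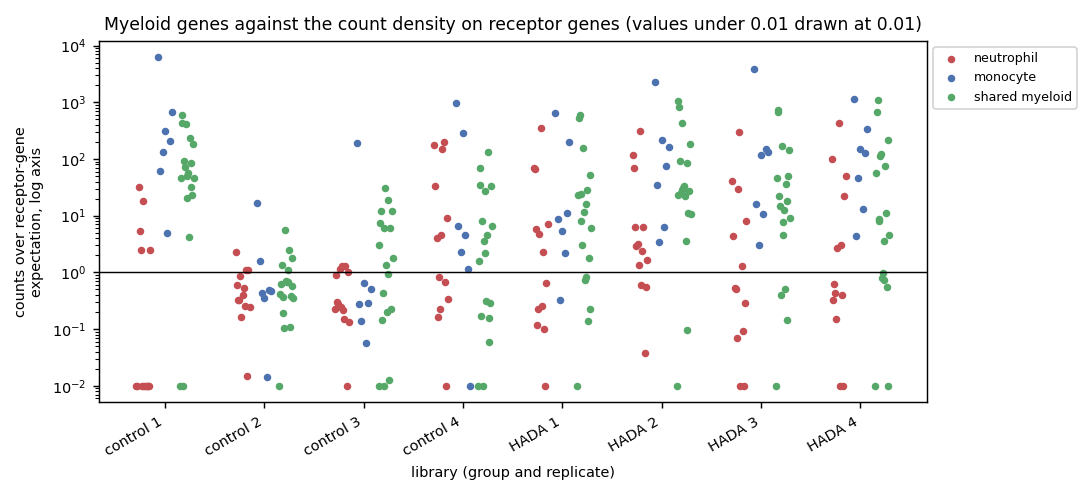
Counts of each myeloid gene divided by the counts expected from its length at the receptor-gene density of the same library (log axis; 1 is the horizontal line). Points of control replicates 2 and 3 cluster around and below 1, and those of the other 6 libraries reach far above it.

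In edgeR's quasi-likelihood test across 21991 genes with Benjamini-Hochberg adjustment, 34 of the 38 genes passed the filter on low counts. Of these 34, 3 were higher in HADA past both thresholds (adjusted p under 0.05, log2 fold change over 1), namely Ltf, Lst1 and Hk3, where 1.65% of all tested genes were. No member was lower by the edgeR test, where 0.477% of all tested genes were, with 1 (Ngp) lower at an unadjusted p under 0.05, where 14.7% were. At an unadjusted p under 0.05, 9 members were higher, where 12% of all tested genes were. The log2 fold change was positive for 27 of the 34 and negative for 7, with a median of 1.48 against 0.01 over all tested genes. It had a median of 0.58 over the 11 tested neutrophil genes, 1.24 over the 7 monocyte genes and 2.11 over the 16 tested shared genes. With single libraries left out, these medians ran from 0.37 (without HADA replicate 2) to 2.68 (without control replicate 4), from 0.97 (without control replicate 3) to 2.26 (without control replicate 1), and from 1.40 (without HADA replicate 2) to 3.33 (without control replicate 1). The lean was not particular to myeloid genes. In the same fit the median was 3.87 for natural killer cell genes, 2.46 for platelet genes and 1.97 for T cell and Treg genes. It was 0.96 for genes of eosinophils, basophils and mast cells, 0.84 for B cell genes, -0.84 for dendritic cell genes and -3.40 for erythroid genes. Camp, Fpr2, Itgam and Ncf1 were not tested. The groups did not overlap for 8 of the 34, all higher in HADA (Ltf, Hk3, Mmp9, Lst1, Tyrobp, Fcer1g, Fcgr3 and Plac8), where 9.13% of all tested genes were, and 0 were lower without overlap, where 5.7% were.

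The count of members depended on single libraries and on the test. Without control replicate 1 it was 13 higher and 0 lower, where 15.5% and 19.7% of all tested genes were. Without control replicate 2, 3 or 4 it was 1 each, Ltf alone, where 0.528%, 0.123% and 0.251% of all tested genes were higher, and 0 lower, where 0.0313%, 0.00441% and 0.00851% were. DESeq2, which gave an adjusted p to 32 of the 38 members, placed 9 higher and 0 lower, where 6.27% and 10.2% of genes were. Camp and Ngp, at log2 fold changes of -7.65 and -4.95 from DESeq2, got no p-value there and could not be called lower. In limma on log2(CPM + 1), 5 members were higher and 0 lower, where 3.7% and 0.346% of genes were. With the receptor-gene background subtracted, 1 member (Ltf) was higher and 0 lower, where 1.25% and 1.12% were. With DESeq2's size factors in edgeR, which shifted the median of all genes to -0.19, the log2 fold change was positive for 25 of the 34, as Mpeg1 and Clec4d turned negative.

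**Figure D4:**
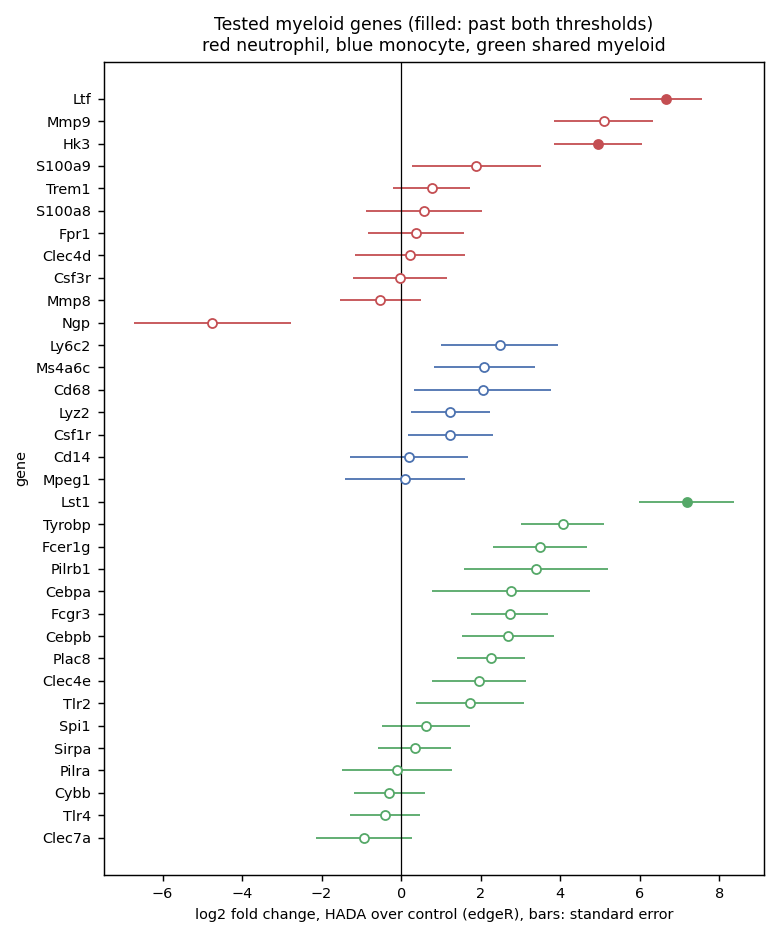
Log2 fold change of HADA over control from edgeR for the 34 tested myeloid genes, with bars for the standard error and filled points for the 3 genes past both thresholds. Neutrophil genes run from -4.75 (Ngp) to 6.66 (Ltf), monocyte genes from 0.11 (Mpeg1) to 2.48 (Ly6c2), and shared genes from -0.94 (Clec7a) to 7.18 (Lst1).

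Among the 8 genes of granule and secreted proteins, Ltf and Mmp9 had every HADA library above every control, where 9.13% of all tested genes did. Ltf alone passed both thresholds by edgeR, where 1.65% of all tested genes were higher. Ltf (ENSMUSG00000032496, chromosome 9, 110848339 to 110871835 in GRCm39) encodes lactoferrin, an iron-binding protein of the specific granules of neutrophils and of glandular secretions. It had 21.1, 3.19, 8.70 and 21.4 CPM in control and 1726, 1363, 1172 and 1191 CPM in HADA. All 4 HADA libraries lay far above all 4 controls and close to one another, at 1363 ± 257 CPM against 13.6 ± 9.12 CPM (SD, n = 4 each). The log2 fold change was 6.66, with a standard error (SE) of 0.90 (adjusted p = 0.00693 from edgeR). Ltf was past both thresholds in all 18 fits planned, those that left out each library in turn included. Its promoter is the one printed with both a PU.1 core and a C/EBP match.

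Camp and Ngp did not follow Ltf. Camp (ENSMUSG00000038357, chromosome 9, 109676447 to 109678685) encodes cathelicidin, an antimicrobial peptide of the same granules, and had 0, 0.407, 0.140 and 67.7 CPM in control and 0.118, 0.251, 0 and 0 CPM in HADA. Ngp (ENSMUSG00000032484, chromosome 9, 110248815 to 110252080), a cystatin-like granule protein, had 0, 0.282, 0.140 and 131 CPM in control and 1.54, 1.42, 0.709 and 1.20 CPM in HADA. Both genes were high in control replicate 4 alone, where Camp had 1168 counts and Ngp 2265. For Ngp the log2 fold change of -4.75, with an SE of 1.97, did not pass (adjusted p = 0.161 from edgeR), and without control replicate 4 it was 2.68. Per kb of exon, the ratio of Ltf to Camp was 0.0775 in control replicate 4 and 3577 in HADA replicate 1, where Camp had 3 counts.

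Mmp8, neutrophil collagenase, ran from 1.24 to 3.28 CPM in control and from 0.118 to 5.74 CPM in HADA, and its groups overlapped. Mmp9, gelatinase B of neutrophils and monocytes, had 0, 0.845, 1.05 and 0.695 CPM in control and 15.1, 3.77, 76.3 and 4.87 CPM in HADA. Every HADA library was above every control, with HADA replicate 3 the highest, and the log2 fold change was 5.10, with an SE of 1.25 (adjusted p = 0.0561 from edgeR and 3.30e-04 from DESeq2). In HADA replicates 2 and 4 the counts of Mmp9 were 1.36 and 2.70 times the receptor-gene expectation, so it did not stand clear there.

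**Figure D5:**
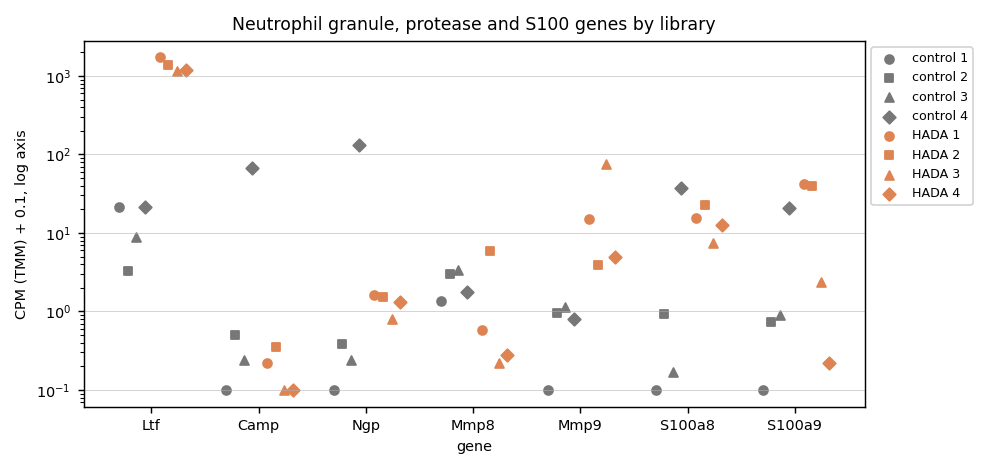
CPM (plus 0.1, log axis) of neutrophil granule, protease and S100 genes in each library, with control and HADA libraries in separate colours and 1 marker shape per replicate. Ltf separates the groups, Camp and Ngp peak in control replicate 4, and S100a8 and S100a9 part from each other most in HADA replicate 4.

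S100a8 and S100a9 encode the subunits of calprotectin, the most abundant cytosolic protein of neutrophils. S100a8 had 0, 0.814, 0.0699 and 37.6 CPM in control and 15.3, 22.9, 7.27 and 12.6 CPM in HADA, with control replicate 4 the highest of all (log2 fold change 0.58, SE 1.46, adjusted p = 0.802 from edgeR). S100a9 had 0, 0.626, 0.803 and 21.0 CPM in control and 42.5, 39.8, 2.30 and 0.120 CPM in HADA (log2 fold change 1.89, SE 1.63, adjusted p = 0.437 from edgeR). The partners did not keep one ratio. Per kb of exon, S100a8 over S100a9 was 0.466, 0.745, 4.09 and 136 in the HADA libraries, and HADA replicate 4 had 210 counts on S100a8 and 2 on S100a9. Without control replicate 4, the log2 fold changes were 5.36 for S100a8 and 5.28 for S100a9, and neither passed the adjusted threshold.

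Lyz2 (ENSMUSG00000069516, chromosome 10, 117113236 to 117118226) encodes the lysozyme of monocytes, macrophages and neutrophils. It had 1524, 28.1, 272 and 996 CPM in control and 682, 2083, 3195 and 690.4 CPM in HADA. Control replicates 1 and 4 lay above HADA replicates 1 and 4, and the log2 fold change was 1.24, with an SE of 1.0 (adjusted p = 0.407 from edgeR). It was 0.78 without HADA replicate 3 and 2.05 without control replicate 1, and did not pass in either. Lyz2 has a near-identical neighbour, Lyz1, and how reads that match both were counted is not stated.

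The growth factor receptors did not separate the groups. Csf3r, the receptor for granulocyte colony stimulating factor, had 31.7, 2.19, 1.71 and 16.3 CPM in control and 24.1, 22.6, 1.77 and 1.503 CPM in HADA. Each group held a pair of high and a pair of low libraries, and the log2 fold change was -0.03, with an SE of 1.17 (adjusted p = 0.987 from edgeR), with values from -0.74 to 1.0 when single libraries were left out. Csf1r, the receptor for macrophage colony stimulating factor, had 93.2, 17.2, 2.48 and 42.4 CPM in control and 58.2, 203, 85.4 and 16.5 CPM in HADA. HADA replicate 2 was the highest and the groups overlapped (log2 fold change 1.23, SE 1.07, adjusted p = 0.442 from edgeR), with 0.54 without HADA replicate 2 and 2.26 without control replicate 1. HADA replicates 3 and 4 thus had Ltf at 1172 and 1191 CPM beside Csf3r at 1.77 and 1.503 CPM.

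Of the 8 receptors for microbial products, 0 were past both thresholds by edgeR, where 1.65% of all tested genes were higher, and 0 at an unadjusted p under 0.05, where 12% were higher and 14.7% lower. DESeq2 and limma placed 0 of them past the thresholds, where 6.27% and 3.7% of genes were higher. The median log2 fold change of the 7 tested was 0.23, and without control replicate 1 Tlr2 alone was higher by edgeR, where 15.5% of genes were. Cd14, the lipopolysaccharide co-receptor, had 11.2, 0.250, 0.0699 and 0.811 CPM in control and 0.118, 1.09, 0.886 and 9.38 CPM in HADA. Control replicate 1 and HADA replicate 4 held nearly all of its level (log2 fold change 0.21, SE 1.48, adjusted p = 0.933 from edgeR), and its sign turned when HADA replicate 4 was left out (-1.66). Tlr4, the lipopolysaccharide receptor that works with Cd14, ran from 21.1 to 94.5 CPM in control and from 8.98 to 66.3 CPM in HADA. Tlr2, the receptor for bacterial lipoproteins, was at 15.5 CPM in control replicate 1 and at 18.3, 22.03 and 11.7 CPM in HADA replicates 1 to 3, and it was at or under 1.25 CPM in the other 4 libraries.

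The C-type lectins were each held by different libraries. Clec7a (Dectin-1, a receptor for fungal glucans) was highest in control replicate 3 at 98.4 CPM and had 27.3, 62.1, 8.56 and 1.08 CPM in HADA. Clec4e (Mincle) reached 49.8 CPM in HADA replicate 2 against 0.962 to 10.5 CPM in the other 7. Clec4d, its partner and neighbour on chromosome 6, reached 35.4 CPM in HADA replicate 4 and 24.2 CPM in control replicate 4, where Clec4e was at 0.962 and 3.65 CPM. Fpr1, a receptor for formylated bacterial peptides, was at most 8.84 CPM, in HADA replicate 2. Fpr2 had at most 1 count in any library, but 99.5% of its span is covered by another gene model.

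Tyrobp, Fcer1g and Fcgr3 had every HADA library above every control, where 9.13% of all tested genes did. None of the 7 adaptors and paired receptors passed the adjusted threshold by edgeR, where 1.65% of all tested genes were higher past both thresholds. At an unadjusted p under 0.05 Tyrobp, Fcer1g and Fcgr3 were higher, where 12% of all tested genes were. DESeq2 placed the same 3 past both thresholds, where 6.27% were higher, and limma placed Tyrobp and Fcer1g, where 3.7% were. Tyrobp (ENSMUSG00000030579, chromosome 7, 30113185 to 30117010), which encodes DAP12, had 79.5, 1.72, 13.1 and 26.5 CPM in control and 480.2, 585, 434 and 499 CPM in HADA. The HADA libraries lay within a narrow band above all controls (log2 fold change 4.06, SE 1.04, adjusted p = 0.0630 from edgeR, 2.90e-04 from DESeq2). Fcer1g (ENSMUSG00000058715, chromosome 1, 171057141 to 171061934), the Fc receptor γ chain, had 140.4, 1.002, 10.4 and 65.9 CPM in control and 518, 931, 595 and 382 CPM in HADA, again without overlap (log2 fold change 3.48, SE 1.18, adjusted p = 0.116 from edgeR, 0.0146 from DESeq2). Without control replicate 1, the library in which both were highest among controls, the log2 fold changes were 5.29 for Tyrobp and 4.65 for Fcer1g, and both passed. Per kb of exon, Tyrobp over Fcer1g stayed between 0.682 and 2.92 in all 8 libraries.

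Fcgr3, the activating low-affinity IgG receptor that signals through the γ chain, had 31.7, 1.91, 12.1 and 4.46 CPM in control and 67.7, 58.9, 107 and 93.5 CPM in HADA (log2 fold change 2.73, SE 0.97, adjusted p = 0.123 from edgeR, 0.0109 from DESeq2). Its groups did not overlap. The paired receptors were uneven. Pilra, an inhibitory receptor, and Pilrb1, its activating counterpart that uses DAP12, were at 29.5 and 30.03 CPM in HADA replicate 2 and at 44.6 and 49.9 CPM in HADA replicate 3, while in HADA replicate 4 they had 0.962 and 0 CPM. Trem1, a DAP12-linked receptor of neutrophils and monocytes, was at most 7.66 CPM, in HADA replicate 2. Sirpa, the inhibitory receptor for CD47, overlapped between groups at 42.2 ± 38.2 CPM in control and 53.1 ± 23.9 CPM in HADA (SD, n = 4 each). Pilrb1 has a close copy, Pilrb2, and other gene models cover 17.8% of its span, so its counts are uncertain.

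Cybb had 598, 43.8, 286 and 1433 CPM in control and 316, 804, 321 and 474 CPM in HADA, with control replicate 4 the highest and a log2 fold change of -0.30, with an SE of 0.89 (adjusted p = 0.831 from edgeR). B cells also transcribe Cybb. Ncf1, the cytosolic p47 subunit, was at 14.9 CPM (24 counts) in control replicate 1 and 12.6 CPM (209 counts) in HADA replicate 4 and at 0.0349 to 0.344 CPM in the other 6, but other gene models cover 44.9% of its span.

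Transcription factors of the myeloid lineage overlapped between the groups. Spi1, which encodes PU.1, had 149.8, 4.20, 4.19 and 54.9 CPM in control and 56.6, 154, 82.3 and 31.9 CPM in HADA. Control replicate 1 nearly matched HADA replicate 2, the highest (log2 fold change 0.62, SE 1.11, adjusted p = 0.718 from edgeR). The log2 fold change of Spi1 was 0.16 without HADA replicate 2 and 2.05 without control replicate 1, and did not pass in either. Cebpb, a C/EBP factor of mature and activated myeloid cells, had 31.1, 2.88, 2.62 and 1.10 CPM in control and 48.8, 120.5, 43.8 and 21.6 CPM in HADA, with a log2 fold change of 2.69, with an SE of 1.16 (adjusted p = 0.170 from edgeR and 0.0417 from DESeq2). Control replicate 1 lay above HADA replicate 4. Other gene models cover 60.4% of the span of Cebpb. Cebpa, the C/EBP factor of granulocyte commitment, was at 36.0 CPM in HADA replicate 4, 13.8 CPM in HADA replicate 2 and 9.32 CPM in control replicate 1, and at or under 1.70 CPM in the other 5.

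Lst1 (ENSMUSG00000073412, chromosome 17, 35404071 to 35407415), a small leukocyte membrane protein found in monocytes and neutrophils, had 0, 0.219, 0.140 and 0.116 CPM in control, from 0, 7, 4 and 2 counts. In HADA it had 16.6, 56.8, 12.4 and 3.55 CPM, from 420, 1356, 210 and 59 counts. The groups did not overlap, and the log2 fold change was 7.18, with an SE of 1.20 (adjusted p = 0.0136 from edgeR). Lst1 was past both thresholds in 5 of the 8 fits that left out 1 library, and without control replicate 2, 3 or 4 its adjusted p from edgeR was 0.0557, 0.0825 or 0.0705.

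Hk3 (ENSMUSG00000025877, chromosome 13, 55153798 to 55169198), a hexokinase of neutrophils and other myeloid cells, had 1.86, 1.28, 0.594 and 1.04 CPM in control and 22.7, 4.77, 21.3 and 93.9 CPM in HADA. Control replicate 1 had 3 counts, HADA replicate 4 was the highest, and the groups did not overlap (log2 fold change 4.96, SE 1.11, adjusted p = 0.0414 from edgeR). Hk3 was past both thresholds in 2 of the 8 fits that left out 1 library, those without control replicate 1 or HADA replicate 2. In the other 6 its adjusted p from edgeR ran from 0.0657 to 0.156. Its counts in HADA replicate 2 were 1.69 times the receptor-gene expectation, so it did not stand clear there. With that background subtracted its adjusted p from edgeR was 0.473.

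Plac8, a small cysteine-rich protein of myeloid and lymphoid cells, had 164, 11.1, 65.4 and 127 CPM in control and 203, 626, 455 and 485 CPM in HADA, without overlap (log2 fold change 2.27, SE 0.86, adjusted p = 0.137 from edgeR, 0.0375 from DESeq2). Cd68 and Ly6c2 were held by the HADA libraries and by control replicate 1. Cd68, a lysosomal glycoprotein of macrophages, had 64.0, 0.313, 0.279 and 0 CPM in control and 81.2, 57.6, 43.4 and 78.2 CPM in HADA. Ly6c2, a marker of classical monocytes, had 38.5, 0.626, 0.314 and 0.869 CPM in control and 8.72, 53.7, 95.2 and 59.0 CPM in HADA. Each was at or under 1 CPM in control replicates 2 to 4, and each passed the edgeR thresholds only in the fit without control replicate 1. Ly6c2 has a close copy, Ly6c1, which T cells and endothelial cells transcribe.

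Mpeg1, the pore-forming perforin-2, showed the reverse of Cd68 in control replicate 4, at 259 CPM against 0, with 68.4 CPM in control replicate 1 and 5.05, 178, 89.2 and 80.8 CPM in HADA (log2 fold change 0.11, SE 1.51). Ms4a6c, a membrane-spanning monocyte protein, had at most 23.4 CPM, in HADA replicate 3, with 94.3% of its span covered by another gene model. Itgam, the integrin CD11b and a standard surface marker of both cell types, had 2 counts in HADA replicate 1 and 0 in the other 7, and 99.9% of its span is covered by another gene model, so that it cannot be read from these counts.

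Single libraries led for different genes. HADA replicate 2 was the highest of all 8 libraries for 13 of the 38 genes, 8 of them shared genes, control replicate 4 and HADA replicate 3 for 6 each, control replicate 1 for 5, HADA replicate 1 for 4, HADA replicate 4 for 3, control replicate 3 for 1 and control replicate 2 for 0. Per kb of exon, the members with the highest mean level in HADA were Tyrobp (733 CPM per kb), Fcer1g (523), Lyz2 (500.1) and Ltf (383). In control they were Lyz2 (212 CPM per kb) and Cybb (101), while Tyrobp had 44.3 and Ltf 3.82.

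Other myeloid genes were read from lists of the same cell types. Their counts stand beside the shares of all tested genes, which for edgeR were 1.65% higher and 0.477% lower past both thresholds, and 12% higher and 14.7% lower at an unadjusted p under 0.05. For DESeq2 they were 6.27% higher and 10.2% lower, for limma 3.7% and 0.346%, and for edgeR without control replicate 1 15.5% and 19.7%. Of 17 further neutrophil genes, 10 were tested and 0 passed both thresholds by edgeR, with 4 at an unadjusted p under 0.05, 1 higher by DESeq2 (Cxcr2) and 0 by limma, and a median log2 fold change of 2.10. Without control replicate 1, 2 were higher (Ltb4r1 and Pglyrp1) and 1 lower (Lcn2). Cxcr2, the chemokine receptor of mature neutrophils, had 5.59, 1.38, 0.873 and 1.04 CPM in control and 13.3, 0.628, 3.48 and 105 CPM in HADA. Retnlg, a resistin-like protein of mature neutrophils, was at 45.3 CPM in HADA replicate 1 and at most 0.712 CPM in the other 7. Pglyrp1, a peptidoglycan-binding granule protein, had 81.4, 1.75, 1.99 and 28.2 CPM in control and 149.5, 242, 159 and 178 CPM in HADA. Like Ltf and Mmp9, it had every HADA library above every control (log2 fold change 2.70, SE 1.15, adjusted p = 0.166 from edgeR). It was the only 1 of the 10 tested that did, where 9.13% of all tested genes did. Ly6g, the surface marker used to sort mouse neutrophils, had at most 16 counts in any library.

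Of 15 further monocyte genes, all 15 were tested and 0 passed by edgeR, with 4 at an unadjusted p under 0.05, 1 higher by DESeq2 (Aif1) and 0 by limma, and a median log2 fold change of 0.70. Without control replicate 1, 5 were higher (Aif1, Cd300e, Cst3, Ctss and Irf8) and 1 lower (Ms4a7). By sign, 11 of the 15 leaned higher in HADA and 4 lower. Ctss ran from 44.2 to 644 CPM in control and from 774 to 1164 CPM in HADA (adjusted p = 0.170 from edgeR). Cst3 ran from 26.3 to 372 CPM in control and from 415 to 817 CPM in HADA (adjusted p = 0.167 from edgeR). These 2 alone on the list had every HADA library above every control, where 9.13% of all tested genes did. On the list 0 were lower without overlap, where 5.7% were. Ccr2, the chemokine receptor of classical monocytes that activated T cells also carry, ran from 38.6 to 354 CPM in control and from 205 to 319 CPM in HADA. Adgre1, which encodes the macrophage marker F4/80, was at 67.2 ± 33.2 CPM in control and 46.6 ± 31.9 CPM in HADA (SD, n = 4 each). Of 26 further genes of myeloid signalling, 24 were tested and 0 passed by edgeR, with 4 at an unadjusted p under 0.05, 3 higher by DESeq2 (Fgr, Hcst and Tlr8) and 2 by limma (Fgr and Hcst), and a median log2 fold change of 1.19. Without control replicate 1, 6 were higher (Cebpd, Cyba, Fgr, Hcst, Itgb2 and Pirb) and 0 lower.

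Markers of other cell types were read beside the myeloid genes, and their part in the myeloid values was not tested. Among 11 genes of eosinophils, basophils and mast cells, 10 were tested and 1 passed by edgeR, Fcer1a, the α chain of the IgE receptor that pairs with the γ chain encoded by Fcer1g. Fcer1a had 8.70, 2.13, 1.54 and 1.68 CPM in control and 84.2, 40.4, 95.0 and 181 CPM in HADA (log2 fold change 4.91, SE 1.01, adjusted p = 0.0319 from edgeR). It passed in 1 of the 8 fits that left out 1 library, the one without control replicate 1. DESeq2 placed 3 of the list higher (Fcer1a, Gata2 and Ms4a2) and limma 2 (Fcer1a and Gata2), where 6.27% and 3.7% of genes were. Ms4a2 had 41.0, 1.47, 21.8 and 0.869 CPM in control and 300.1, 86.3, 76.7 and 264 CPM in HADA, without overlap. Gata2 averaged 5.42 CPM in control and 59.3 CPM in HADA, with overlap. Of the 10 tested genes, 6 had a positive log2 fold change and 4 a negative one. The summed level of the 11 genes ran from 29.0 to 809 CPM in control and from 244 to 873 CPM in HADA, and the basophil proteases Mcpt8 and Prss34 stood at 95.4 and 559.8 CPM in control replicate 4, the library that also held Camp and Ngp, while in HADA Mcpt8 ran from 0.945 to 149 CPM and Prss34 from 0 to 25.8 CPM.

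Natural killer cell genes, which share Tyrobp and Fcer1g, summed to between 2.32 and 16.2 CPM in control and between 38.5 and 469 CPM in HADA, highest in HADA replicate 4. T cell and Treg genes summed to between 237 and 1251 CPM in control and between 1637 and 4686 CPM in HADA. For each of these sums the groups did not overlap (two-sided exact permutation test, p = 0.029 and an adjusted p of 0.0714 over 10 measures). In HADA the natural killer cell sum rested mostly on Nkg7 in replicates 2 to 4 (70.4, 74.5 and 425 CPM) and on Klre1 in replicate 1 (34.7 CPM). Each gene of that list overlapped between the groups. Nkg7 had 16.2 CPM in control replicate 1 and 2.88 CPM in HADA replicate 1. Eomes averaged 0.535 CPM in control and 0.322 CPM in HADA. B cell genes summed to 97.4 to 2379 CPM in control and 916 to 3011 CPM in HADA, platelet genes to 42.3 to 470 CPM and 267 to 1662 CPM, dendritic cell genes to 12.4 to 76.4 CPM and 29.4 to 99.1 CPM, and erythroid genes to 1023 to 28265 CPM and 144 to 2806 CPM, with adjusted p-values from 0.114 to 0.457 in the same permutation tests. Ms4a1 of the B cell list and Alas2 of the erythroid list were listed at 0 in all 8 libraries. Other gene models cover 100% of the span of each, so that these zeros do not measure the transcripts. Control replicate 2 was the lowest library on the TMM scale in all 3 myeloid subgroup sums and in the T cell and B cell sums.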

How the data were processed

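RNA was sequenced from Tregs sorted by flow cytometry from mouse peripheral blood, with cDNA made by a low-input kit. The study's methods define Tregs as CD4+CD25+ for its suppression assay and do not state the gate for the sequenced cells. The deposited table holds raw counts for 56980 genes, not normalized, which the authors made with featureCounts from STAR alignments to GRCm39, after quality control with FastQC and trimming with Trimmomatic. The counted length equals the gene span from start to end for 100% of genes, so that counts include introns. Strand and multi-mapping settings are not given in the sources used here. Where gene spans overlap, counts are uncertain.

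Groups and replicate numbers came from the labels. Gene names came from GENCODE vM39, which held 56236 identifiers (98.7%). The 38 members and all other lists were chosen with earlier results of these data known. Every member is accounted for, with full statistics for those past the thresholds and for S100a8, S100a9, Csf3r, Csf1r, Lyz2, Cd14, Tyrobp, Fcer1g and Spi1. Genes named from the other lists without passing the thresholds were picked after their values were seen.

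HADA and control libraries were compared with edgeR's quasi-likelihood test (version 4.0.16, TMM, filterByExpr, Benjamini-Hochberg adjustment over 21991 genes, without covariates) in R 4.3.3, on 4 against 4 libraries with 1477431 to 28240337 counts each. Thresholds were an adjusted p under 0.05 and a log2 fold change over 1 or under -1, as in the study's methods, which name DESeq2 1.42.0. DESeq2 was run as an alternative on all genes with any count. Other alternatives were limma 3.58.1 on log2(CPM + 1) and log2(CPM + 0.1), DESeq2's size factors in edgeR, no filter on low counts, a minimum of 10 counts in each library, drawing all libraries down to the smallest total, the replicate number as a block, subtraction of the density on 1558 receptor genes that no other gene overlaps, and each library left out. Fits of DESeq2 without control replicate 1 and of edgeR without control replicate 1 and HADA replicate 2, and the sums without Ltf or Lyz2, were chosen after seeing the data. Two-sided exact permutation tests compared single values between the libraries. The log2 CPM values used a prior count of 2. Promoters came from a RefSeq table (GRCm38.p6) that held 30 of the 38 members. The edgeR, DESeq2 and limma scripts were tested on simulated data with log2 changes of 3 and a dispersion (spread between libraries) of 0.2. The common dispersion of the real libraries was 0.805, so that test does not measure how well changes are found in them. Figures were drawn with matplotlib 3.10.9 in Python 3.11.15, and tables were made with numpy 2.4.6, pandas 2.3.3 and scipy 1.17.1.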

Additional observations from a re-analysis of the deposited data

Results flagged for a closer look

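In each group of 4 libraries, the highest or lowest log2 CPM was called far from the rest when its gap to the nearest library, as a share of the group's range, was over Dixon's critical value. Of 82 groups tested, 6 were called, where chance alone gives about 5%, or 4.1. Mmp9 stood low in control replicate 1, at a log2 CPM of -3.34 from 0 counts, against -0.33 to 0.20 in the other controls. Cebpa stood high in control replicate 1, at 3.24 from 15 counts, against -3.34 to -2.38. Ncf1 stood high in HADA replicate 4, at 3.66 from 209 counts, against -1.91 to -1.42 in the other HADA libraries. The other 3 rest on 1 or 2 counts where the rest of the group had 0 (-3.34). They are Fpr2 in HADA replicate 2 (-2.83) and in control replicate 2 (-2.94), and Itgam in HADA replicate 1 (-2.49).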

How the results depend on the processing

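The shallow control replicate 1, the receptor-gene counts of control replicates 2 and 3 and the wide spread among controls limit what these libraries can show, and values near the floor of 3 counts move with the prior count. With 3 members past the thresholds in the main fit (Ltf, Lst1 and Hk3), 363 of all genes were higher and 105 lower. When single libraries were left out, or control replicate 1 with HADA replicate 2, these ranged from 28 to 3716 genes higher, from 1 to 4732 lower, from 1 to 13 members higher and from 0 to 2 lower. DESeq2 gave 2026 genes higher, 3296 lower and 9 members, where 6.27% and 10.2% of genes were higher and lower. Without control replicate 1 it gave 6028, 6000 and 14, from 41813 genes with any count and 38 members. Without control replicate 1 and HADA replicate 2, edgeR gave 3181 of 23333 tested genes higher and 3656 lower. Of the 33 members tested there, 10 were higher and 2 lower (Mmp8 and Fpr1). No filter left 54 genes lower, at least 10 counts left 93 higher, limma gave 814 higher and 5 members with a pseudocount of 1 and 30 lower with 0.1, and drawn-down libraries gave 62 higher and 52 lower. Background subtraction gave 113 higher and 1 member.

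The median log2 fold change of the neutrophil genes, 0.58, was 3.01 with at least 10 counts, 5.98 in drawn-down libraries, 4.40 after background subtraction and from 0.31 to 2.68 with libraries left out. The first 3 of these settings tested fewer genes. The log2 ratio of the neutrophil sums, 3.79, was 1.35 as a difference of mean log2 CPM and 0.43 without Ltf. Signs turned for Csf3r (0.12 without a filter, 0.16 after subtraction, 1.02 in DESeq2 without control replicate 1, 0.54 without control replicate 1 and HADA replicate 2, and -0.74 to 1.0 with single libraries left out), for Cd14 (-0.0163 with DESeq2, -1.66 to 3.37 with libraries left out), for Ngp (0.28 with limma and a pseudocount of 0.1, -5.17 to 2.68 with libraries left out) and for S100a8 (-0.036 to 5.36 with libraries left out). None of these was past the thresholds in the main fit, and the cause was not tested. The median of all genes moved most with DESeq2 on all genes with any count, to -0.99, and with background subtraction, to 1.0. The median of the tested members stayed above that of all genes in all 20 fits, by 0.77 to 2.52. In the main fit the members' median of 1.48 was still below those of the T cell and Treg, platelet and natural killer cell genes (1.97, 2.46 and 3.87). It was above those of the other cell type lists outside the myeloid ones.

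With the replicate block, 158 genes were higher and 11 lower, where 0.718% and 0.05% of tested genes were, with 2 members (Lst1 and Ltf), and Ngp was at 1.31. Correlations of same-numbered libraries' deviations were -0.21, 0.25, -0.08 and -0.00316, and not every HADA library correlated best with its own number, so the numbers were not taken to pair the libraries. Ltf was past the thresholds in all 18 planned fits that could test it. Lst1 was in 12 of 17 and Hk3 in 8 of 16.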

Other observations

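The genes beside Ltf on chromosome 9 did not carry its difference. Rtp3, before Ltf, had at most 12 counts in any library. Ccrl2, after Ltf, a chemerin-binding receptor of neutrophils and other leukocytes, had 6.21, 0.438, 0.629 and 0.464 CPM in control and 2.998, 20.0, 41.5 and 0.0601 CPM in HADA, so that HADA replicates 1 and 4 lay below control replicate 1.

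Control replicate 4 also held Mpo, the myeloperoxidase of the azurophil granules that neutrophil precursors make, at 32.2 CPM against at most 0.481 CPM in the other 7 libraries, and Lcn2, a siderophore-binding granule protein, at 4.81 CPM against at most 0.349 CPM. Other gene models cover 49.5% of the span of Mpo. Elane, neutrophil elastase of the azurophil granules, was at most 0.126 CPM in any library. In HADA replicate 4, Padi4, the enzyme that citrullinates histones in neutrophils, was at 41.6 CPM against at most 4.23 CPM elsewhere, and Cxcr2 was at 105 CPM, while Clec4d was highest there too, and Ncf1 was at 12.6 CPM, second to the 14.9 CPM of control replicate 1. Other neutrophil genes were low in HADA replicate 4, with S100a9 at 0.120 CPM, Csf3r at 1.503 CPM, Mmp8 at 0.180 CPM and Fpr1 at 0.361 CPM. Camp, Retnlg and Ly6g had 0 CPM there. The genes of this paragraph were picked after their values were seen.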
